A study of Mus musculus with 18 samples.

Results

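The genes that make bile acids in the liver, and the nuclear receptors that adjust their output, were followed across 6 groups of 3 mouse livers. The 10 genes were taken by symbol from a liver RNA-seq table of 19057 rows, and all 10 were among the 10507 genes tested. They were Cyp7a1, Cyp8b1, Cyp27a1, Cyp7b1, Akr1d1, Akr1c6, Baat, Nr1h4, Nr0b2 and Nr5a2. All livers came from ICR mice aged 10 weeks, which the study's methods describe as male. The Con mice ate a regular diet and received saline. The AOS mice, labelled only with that treatment, received alginate oligosaccharide (AOS, a short-chain product of seaweed alginate) at 10 mg/kg. The HFD mice ate a high-fat diet and received saline, and the HFD+AOS mice are labelled with high-fat diet plus AOS at 10 mg/kg. How and when AOS was given to the AOS and HFD+AOS mice is not given in the sources used here. The Con-FMT mice ate the high-fat diet and received by mouth the small intestinal microbiota of control donors. The A10-FMT mice ate the same diet and received the microbiota of donors that had been given AOS at 10 mg/kg. The donors' intestinal contents were pooled, so the recipients of one transplant shared a source. The question was how these genes stood after the high-fat diet, after AOS and after transplanted microbiota.

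Bile acids are made from cholesterol in hepatocytes. In the classic pathway Cyp7a1 hydroxylates cholesterol at the rate-limiting step, and Cyp8b1 adds the 12-alpha hydroxyl group that makes cholic acid. In the alternative pathway Cyp27a1 hydroxylates the side chain and Cyp7b1 adds the 7-alpha group to the resulting oxysterols. Akr1d1 reduces the steroid ring, Akr1c6 is a hydroxysteroid dehydrogenase of the aldo-keto reductase family, and Baat joins the finished acid to taurine or glycine. Nr1h4 encodes FXR, the nuclear receptor that bile acids bind. FXR raises Nr0b2, which encodes the repressor SHP, and SHP restrains the activation of Cyp7a1 and Cyp8b1 by Nr5a2 (LRH-1) and by Hnf4a.

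Promoter sequence can hold letters that such receptors bind, so 3 windows of 250 bases before an annotated start are printed, from RefSeq on GRCm38.p6. They belong to Nr1h4, the regulator whose RNA differed most clearly between groups, and to Cyp8b1 and Nr0b2, the target and the repressor in the feedback loop. Each is written 5′ to 3′ on the gene's own strand, and capitals mark matches to the motifs searched.
Nr1h4, chr10:89506659-89506908, minus strand: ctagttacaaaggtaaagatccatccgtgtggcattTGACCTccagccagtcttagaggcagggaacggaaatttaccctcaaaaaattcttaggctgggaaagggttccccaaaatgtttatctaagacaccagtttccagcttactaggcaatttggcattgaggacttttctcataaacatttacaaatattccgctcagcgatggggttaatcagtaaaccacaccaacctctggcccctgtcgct
Cyp8b1, chr9:121916306-121916555, minus strand: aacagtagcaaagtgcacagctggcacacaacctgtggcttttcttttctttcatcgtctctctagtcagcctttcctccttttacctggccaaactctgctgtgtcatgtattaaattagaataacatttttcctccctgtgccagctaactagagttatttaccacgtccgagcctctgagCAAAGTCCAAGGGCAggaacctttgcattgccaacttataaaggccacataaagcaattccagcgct
Nr0b2, chr4:133553126-133553375, plus strand: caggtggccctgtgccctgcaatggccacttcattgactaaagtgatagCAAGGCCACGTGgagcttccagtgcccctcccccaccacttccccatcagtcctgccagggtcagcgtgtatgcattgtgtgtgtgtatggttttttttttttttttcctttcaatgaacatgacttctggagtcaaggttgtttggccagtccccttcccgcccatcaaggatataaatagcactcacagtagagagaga
In the Cyp8b1 window the capitals join a CAAAGTCCA (the Hnf4a motif, 67 to 59 bases before the start) and a CAAGGGCA (the Nr5a2 motif CAAGGNCA, 60 to 53 bases before), which overlap each other. In the Nr0b2 window a CAAGGCCA (201 to 194 bases before) overlaps an E-box, CACGTG (195 to 190 bases before). The Nr1h4 window lies inside the annotated gene, before an internal start, and holds one nuclear receptor half-site, AGGTCA, read on the opposite strand as TGACCT 214 to 209 bases before that start.

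Each of 6 motifs was searched on both strands in the 8 windows that RefSeq gave for 7 of the 10 genes, with 2 windows for Nr5a2. Over all 32851 windows of that length, 5.53% held CAAGGNCA, 14% held AGGTCA, 0.384% held CAAAGTCCA, 6.02% held CACGTG and 3.07% held the D-box TTATGNAA. The FXR inverted repeat (a pair of AGGTCA half-sites facing each other with 1 base between) stood in 0.00609% of windows and was not found in the windows of these genes. A CAAGGACA stood 42 to 35 bases before the RefSeq start of Akr1c6. That window overlaps the annotated gene, with 37 of its bases in annotated Akr1c6 exons. Akr1d1 held a pair of TGACCT and a TTATGCAA, Cyp27a1 a TTATGAAA and Nr5a2 an AGGTCA. These are matches of letters, and binding was not measured.

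Levels are RPKM (reads per kilobase of transcript, scaled to the reads mapped in each library), which allow genes to be compared per length. The hepatocyte genes Alb, Apoa1, Ttr, Tat, Cps1, Asgr1, Hnf4a and F2 were high in every library, with summed levels of 37664 to 61965 RPKM. The 6 cholangiocyte genes summed to 19.0 to 41.2 RPKM over the livers, most of it Spp1 (13.9 to 36.8), with Sox9 at 0.76 to 3.56, Krt19 at 0.55 to 1.84, Krt7 at 0.29 to 0.85, Epcam at 0.06 to 0.54 and Cftr at 0.06 or less. Reads per library are not given. The value of 1 read, judged from 24 to 40 sparse genes in each library, varied between 0.977 and 1.02 of its median. Only values near the smallest of each sparse gene were used, which narrows the range this measure can take. Whether depth was similar is therefore not settled. In bulk liver, fewer cells of a type and less RNA per cell cannot be told apart. The third Con liver lay between the other Con livers for 98.0% of 148 genes that differed strongly between those, and the third AOS liver for 96.5% of 142. In the 12 high-fat livers that share was 58.1% to 76.8%. For such genes the third Con and AOS livers lay a median of 0.0665 and 0.083 on the log2 scale from the nearest weighted mean of the other livers of their group, against 0.341 to 1.08 for the other 16 livers. Whether Con and AOS each hold 3 independent livers was not tested, so n = 3 there may be too high. Calls lost without these livers are named as such, and over all genes HFD against Con went from 40 calls to 0 without them. Acute phase genes, which report inflammation, summed to 25086 RPKM in Con liver 1, 3948 in Con liver 2 and 15541 in Con liver 3, against 2362 to 4404 in the other 15 livers.

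Akr1c6 was the most abundant at 574 to 1172 RPKM, followed by Cyp7b1 (80.4 to 368), Cyp27a1 (148 to 263), Cyp8b1 (147 to 331) and Baat (143 to 177). Akr1d1 (46.6 to 81.7), Nr1h4 (54.4 to 96.3) and Nr0b2 (26.8 to 70.6) came next, and Nr5a2 was the lowest at 8.15 to 15.1. Cyp7a1 spanned 8.63 to 87.6 RPKM, a 10.2-fold range. Its SD between livers of one group was 0.78 on the log2 scale, larger than that of 99.4% of the genes tested. Baat was at the other end with a 1.24-fold range and an SD of 0.07, larger than that of only 4.26% of genes, beside a median SD of 0.13.

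**Figure D1:**
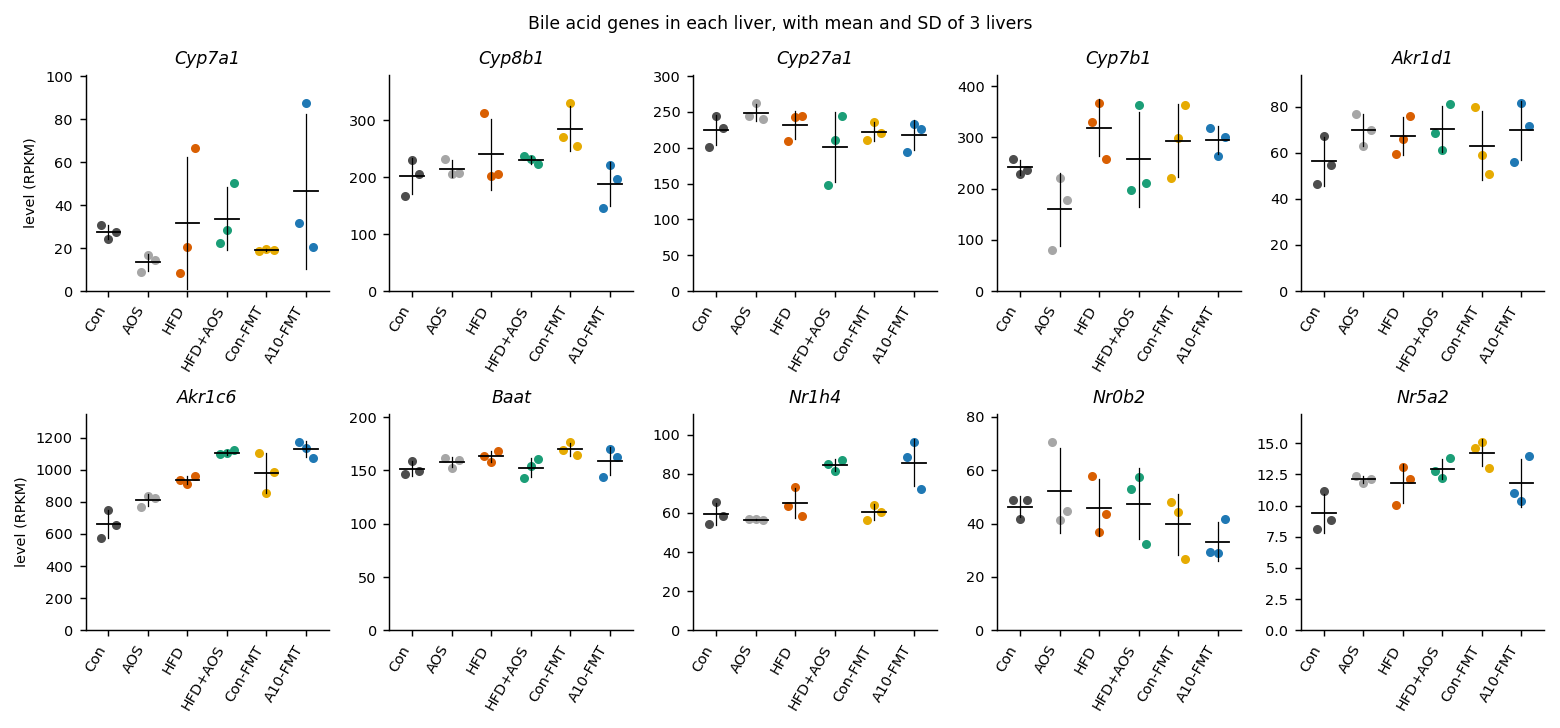
Level of each of the 10 genes in RPKM (vertical axes, from 0) in each liver of the 6 groups (points), with the mean (horizontal line) and SD (vertical line) of 3 livers. Akr1c6 stood at 853 to 1172 RPKM in the 12 high-fat livers and at 574 to 839 in the 6 regular-diet livers, Nr1h4 was highest in HFD+AOS and A10-FMT, and Cyp7a1 spread from 8.63 to 66.7 RPKM within HFD alone.

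Differences were tested with limma on log2(RPKM + 1) over all genes, and a gene was called at a Benjamini-Hochberg adjusted p under 0.05. Of the 10 genes, 3 were called between all 12 high-fat and all 6 regular-diet livers, beside 12.9% of all genes. They were Akr1c6, Nr1h4 and Cyp7b1, all higher in the high-fat livers. That comparison pools livers with AOS or transplants with those without. Mean Nr1h4 was 62.8 RPKM in the HFD and Con-FMT livers together and 85.2 in the HFD+AOS and A10-FMT livers, against 58.1 on the regular diet. Between the 6 high-fat livers linked to AOS (HFD+AOS and A10-FMT) and the 6 without it (HFD and Con-FMT), 2 were called, Nr1h4 and Akr1c6, both higher, beside 15.4% of all genes. Nr1h4 was the 1 gene of the 10 called in HFD+AOS against HFD, beside 8.75% of all genes. The same held in A10-FMT against HFD, beside 6.6%, and in A10-FMT against Con-FMT, beside 1.68%. Akr1c6 was the 1 gene called in HFD against Con, beside 0.381%. By limma, 0 were called in Con-FMT against HFD (0.00952%, 1 gene in all), in AOS against Con (0.133%) and in the difference of the AOS effect between diets (0.504%). At an unadjusted p under 0.05 those 3 comparisons held 1, 3 and 1 of the 10 genes. The comparisons share libraries, so their calls are not independent. Labels of the samples number 3 livers a group and do not say that each came from a separate mouse, so p-values measure the spread between these samples. With 10 genes, counts this small are read gene by gene. The median log2 fold change of the 10 genes was 0.19 between diets and -0.08 between AOS-linked and AOS-free livers, beside 0.01 and -0.02 for all genes tested.

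Livers were also compared by whether the groups overlapped. All 12 high-fat livers stood above all 6 regular-diet livers for 1 of the 10 genes, Akr1c6, and 0.628% of all genes separated in either direction. None of the 10 separated the AOS-linked from the AOS-free livers, where 4.84% of all genes did. Between groups of 3, the genes without overlap were Cyp7b1 and Akr1c6 in HFD against Con (18.5% of all genes), Akr1c6 in A10-FMT against HFD (23.4%), Akr1c6 and Nr1h4 in HFD+AOS against HFD (27.2%), and Cyp7a1, Nr1h4 and Cyp8b1 in A10-FMT against Con-FMT (18.3%). In AOS against Con, Akr1c6, Nr5a2, Cyp7a1 and Cyp7b1 did not overlap (24.7%), and in Con-FMT against HFD all 10 overlapped (10.1%).

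**Figure D2:**
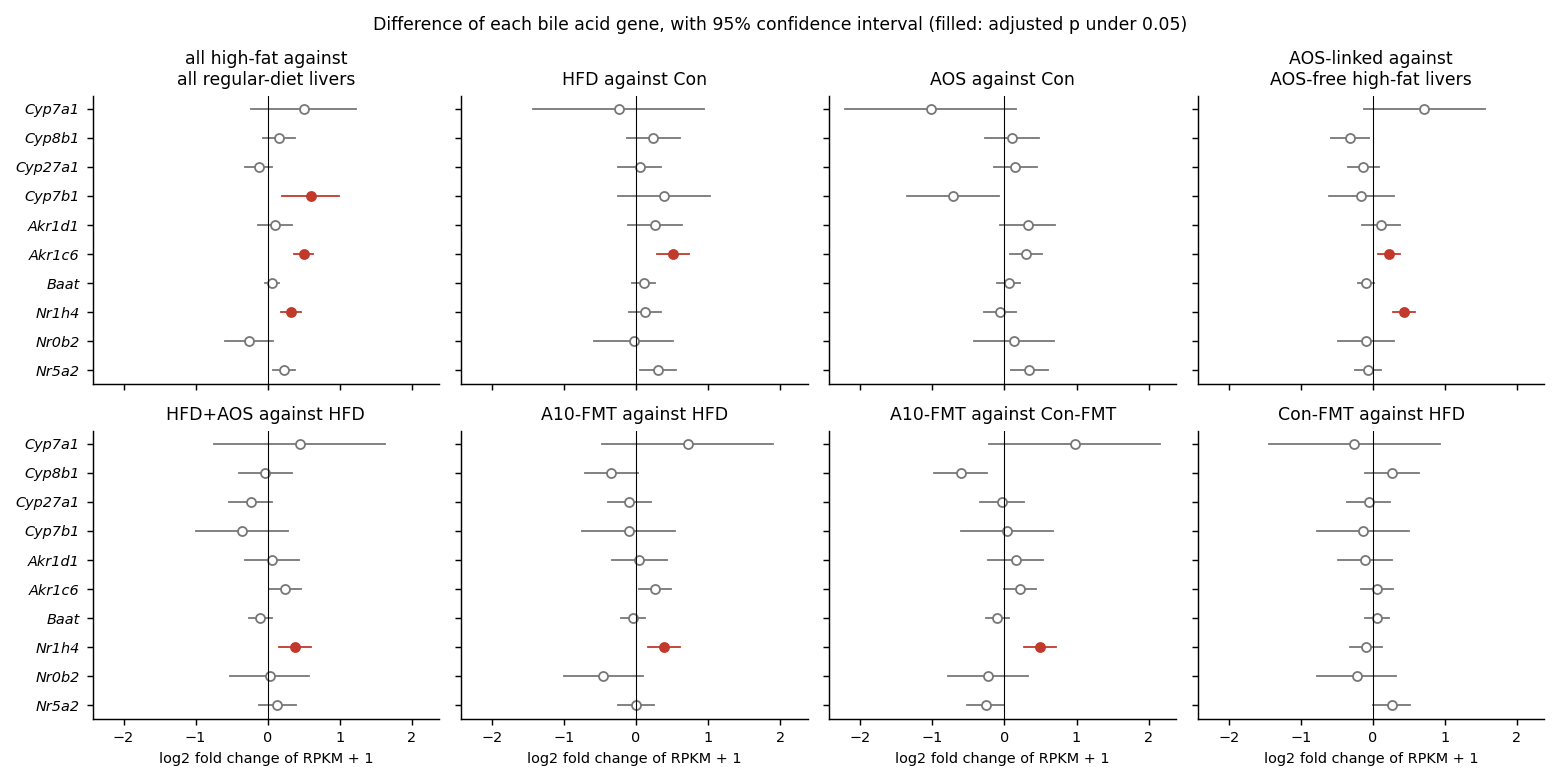
Log2 fold change of RPKM + 1 (horizontal axes) of the 10 genes in 8 comparisons, with the 95% confidence interval as a line and filled points for genes with an adjusted p under 0.05. Nr1h4 was filled in 5 panels at 0.33 to 0.49, and the Cyp7a1 intervals were the widest in every panel.

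Cyp7a1 (chr4:6265612-6275633, GRCm38, minus strand) was even in some groups and widely spread in others. Its levels were 30.7, 24.3 and 27.5 RPKM in Con, 8.92, 16.9 and 14.3 in AOS, and 8.63, 20.3 and 66.7 in HFD. They were 22.6, 28.2 and 50.2 in HFD+AOS, 18.7, 19.7 and 18.9 in Con-FMT, and 31.5, 87.6 and 20.5 in A10-FMT. All AOS livers were below all Con livers and all A10-FMT livers above all Con-FMT livers, while HFD overlapped every other group. The log2 fold change was -1.02 in AOS against Con (95% interval -2.21 to 0.16, adjusted p = 0.40), 0.72 in A10-FMT against HFD (-0.47 to 1.90, 0.457) and 0.97 in A10-FMT against Con-FMT (-0.21 to 2.16, 0.399). In HFD against Con it was -0.24 (-1.43 to 0.95, adjusted p = 0.874), and a single liver set its direction: without HFD liver 1 it was 0.42 and without HFD liver 3 it was -0.99. HFD liver 3 also bore on the AOS-linked comparison, where the value was 0.71 (adjusted p = 0.232), and 1.09 (adjusted p = 0.0452) without this liver. The difference of the AOS effect between diets was 1.47 (-0.21 to 3.15, adjusted p = 0.404), so a difference of response between the diets was not detectable with 3 livers a group.

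Cyp8b1 (chr9:121914356-121916305, GRCm38, minus strand) was the gene with the overlapping Hnf4a and Nr5a2 letters. It measured 168, 231 and 206 RPKM in Con, 232, 205 and 208 in AOS, and 313, 203 and 206 in HFD. It measured 237, 232 and 223 in HFD+AOS, 270.2, 331 and 255 in Con-FMT, and 147, 222 and 197 in A10-FMT. The 3 Con-FMT livers were all above the 3 A10-FMT livers, with a mean of 285 ± 40.1 (SD, n = 3) against 189 ± 38.5. That difference was -0.61 on the log2 scale (-0.98 to -0.24) and missed the threshold at an adjusted p of 0.0972. A10-FMT against HFD was -0.34 (adjusted p = 0.245), and the AOS-linked comparison was -0.32 (adjusted p = 0.0887). All high-fat against all regular-diet livers gave 0.16 (adjusted p = 0.368), and HFD against Con gave 0.24 (adjusted p = 0.539).

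In the alternative pathway, Cyp27a1 was nearly level and Cyp7b1 was not. Cyp27a1 (chr1:74713574-74737892, GRCm38, plus strand) had group means of 201 to 249 RPKM, and its log2 fold changes between groups ran from -0.24 in HFD+AOS against HFD to 0.15 in AOS against Con, with no call. Cyp7b1 (chr3:18071950-18243338, GRCm38, minus strand) measured 258, 229.5 and 237 RPKM in Con and 80.4, 220.05 and 178 in AOS. On the high-fat diet it measured 331, 368 and 259 in HFD, 197, 363 and 211 in HFD+AOS, 219.9, 298 and 363 in Con-FMT, and 318, 265 and 301 in A10-FMT. The HFD livers lay just above the Con livers (259 against 258 RPKM at the nearest pair) and the AOS livers below them. Cyp7b1 rose between the diets by 0.60 on the log2 scale (SE 0.18, adjusted p = 0.0443), a median of 299 RPKM in 12 high-fat livers against 225 in 6 regular-diet livers. The call was close to the threshold. Without AOS liver 1, the lowest of all, the value was 0.38, and leaving out any one of 13 of the 18 livers (every Con and A10-FMT liver, AOS livers 1 and 3, HFD livers 1 and 2, HFD+AOS liver 2, Con-FMT livers 2 and 3) raised the adjusted p to between 0.0535 and 0.105. Without the third Con and AOS livers, without the filter on low values or with library medians set equal it was not called either. AOS against Con alone was -0.71 (-1.35 to -0.08, adjusted p = 0.266), and -0.28 without AOS liver 1. HFD against Con was 0.39 (adjusted p = 0.57).

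In mouse liver Cyp7b1 is known as a gene with higher expression in males. The 8 male-biased liver genes listed (Mup20, Elovl3, Cyp4a12a, Hsd3b5, Cyp2d9, Selenbp2, Ugt2b38 and Serpina1e) summed to 2874, 4234 and 3775 RPKM in the AOS livers and to 9514, 5325 and 7086 in the Con livers. By median level Mup20 (968 to 6428 RPKM) and Selenbp2 (397 to 2585) were the largest parts of the sum. AOS liver 1 had the lowest sum and the lowest Cyp7b1. Con liver 1 had the highest sum, with 258 RPKM of Cyp7b1, and Con liver 3 had 237 RPKM at a sum of 7086. HFD liver 2 had the highest Cyp7b1 (368 RPKM) at a sum of 5957. The HFD+AOS livers with 197 and 211 RPKM of Cyp7b1 had sums of 3364 and 3567, and the one with 363 RPKM had 6433. Over all high-fat livers the sums were 3364 to 7468. Of the 8 female-biased genes only 4 passed the filter, and the list summed to 64.6 RPKM in AOS liver 1 and 88.5 in HFD+AOS liver 1, against 2.77 to 26.8 in the other livers. The part of these lists in the Cyp7b1 values was not tested.

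**Figure D3:**
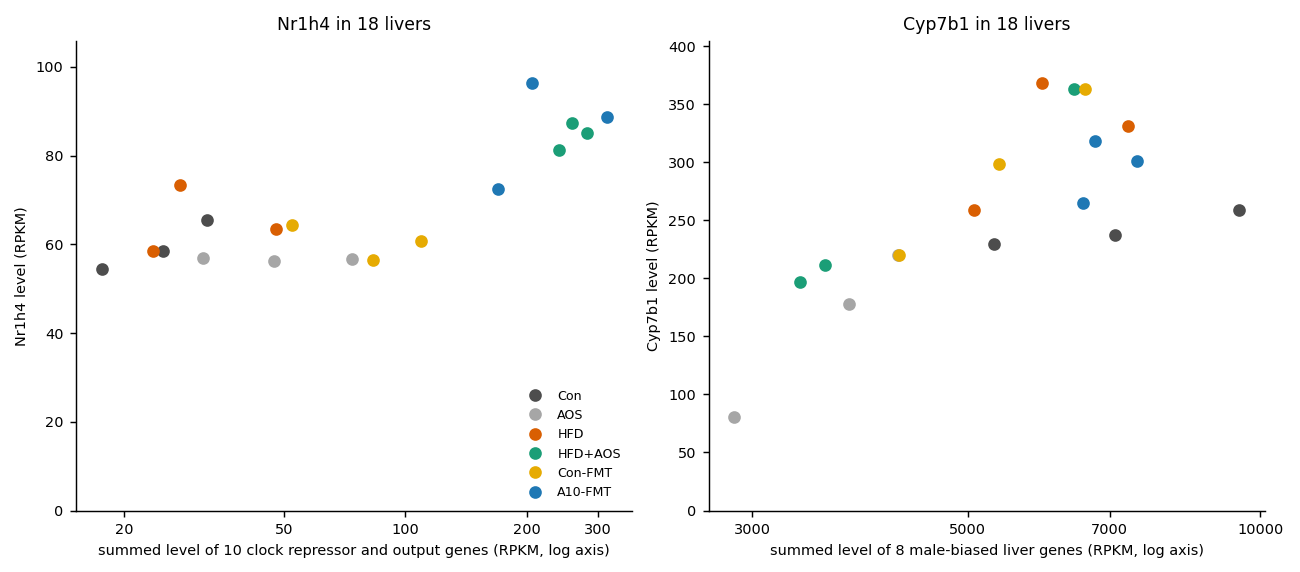
Left, Nr1h4 level in RPKM against the summed level of 10 clock repressor and output genes (log axis), and right, Cyp7b1 level against the summed level of 8 male-biased genes (log axis), with 1 point per liver coloured by group. The 6 AOS-linked high-fat livers lie at clock sums of 170 to 317 RPKM and Nr1h4 of 72.4 to 96.3, apart from the other 12 livers in the clock sum. The lowest Cyp7b1 (80.4 RPKM) is at the lowest male-biased sum, and the highest sum (9514 RPKM) is at a Cyp7b1 of 258.

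Among the enzymes that finish the ring system and the side chain, Akr1c6 moved and Akr1d1 and Baat did not pass the test. Akr1c6 (chr13:4434306-4457877, GRCm38, plus strand) measured 574, 752 and 658 RPKM in Con and 769, 839 and 825 in AOS. It measured 934, 909 and 963 in HFD, 1095, 1101 and 1121 in HFD+AOS, 1104, 853 and 983 in Con-FMT, and 1172, 1137 and 1074 in A10-FMT. Every high-fat liver was above every regular-diet liver, with 853 against 839 RPKM at the nearest pair. Akr1c6 rose between the diets by 0.50 on the log2 scale (SE 0.06, 95% interval 0.36 to 0.64, adjusted p = 1.7e-04), and it was called under all 23 alternatives, at 0.45 to 0.55. HFD against Con gave nearly the same size, 0.51 (SE 0.10, adjusted p = 0.0498), but there the call was lost without Con liver 1 or 3 or any one HFD liver (0.41 to 0.53, adjusted p = 0.0782 to 0.234) and without the third Con and AOS livers. Con liver 1, with the lowest Akr1c6, also had the highest acute phase sum. Con liver 3, with 658 RPKM of Akr1c6, had a high sum too, at 15541 RPKM. Con liver 1 was also the lowest of the 18 livers for Nr1h4, Nr5a2 and Akr1d1. Without Con liver 1 Akr1c6 was called between diets at 0.45, with Con liver 3 still in the fit. The part of the acute phase in these values was not tested.

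Within the high-fat livers Akr1c6 rose with AOS by 0.23 (SE 0.07, adjusted p = 0.0499), from a median of 948 RPKM in AOS-free livers to 1111 in AOS-linked ones. This call was at the edge of the threshold. It was lost when any one of 10 of the 12 livers was left out (all but Con-FMT liver 1 and A10-FMT liver 3), at 0.18 to 0.24 and an adjusted p of 0.062 to 0.133, and without the third Con and AOS livers. The separate comparisons were 0.24 in HFD+AOS against HFD (adjusted p = 0.155), 0.27 in A10-FMT against HFD (0.127) and 0.30 in AOS against Con (0.189). Akr1c6 has close relatives on the same chromosome: 5.01% of the 35-base stretches of its transcripts also occur in other genes, all of them in Akr1c20 and 10 and 4 of those 84 also in Akr1c14 and Akr1c18. Akr1c20 stood at 58.2 to 78.7 RPKM in high-fat and 51.9 to 79.5 in regular-diet livers, far below Akr1c6. Of the other genes, 7 shared none of their stretches, and Akr1d1 and Nr5a2 shared 0.113% and 1.36%.

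Akr1d1 (chr6:37530173-37568815, GRCm38, plus strand) had group means of 56.3 to 70.4 RPKM and log2 fold changes of -0.11 to 0.32 over the comparisons of 2 groups. Baat (chr4:49489422-49506557, GRCm38, minus strand) had group means of 152 to 169.96 RPKM and changes of -0.10 to 0.11. For Baat, the steadiest of the 10, the 95% interval between diets was -0.04 to 0.16, so a rise or fall of more than 0.16 on the log2 scale lay outside it.

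Nr1h4 (chr10:89454234-89533585, GRCm38, minus strand), the gene of FXR, was higher in both AOS-linked groups on the high-fat diet. It measured 54.4, 65.5 and 58.6 RPKM in Con, 56.7, 56.9 and 56.3 in AOS, and 63.4, 73.4 and 58.6 in HFD. It measured 85.0, 81.2 and 87.3 in HFD+AOS, 56.6, 64.3 and 60.7 in Con-FMT, and 88.7, 96.3 and 72.4 in A10-FMT. HFD+AOS stood entirely above HFD, A10-FMT stood entirely above Con-FMT, and the lowest A10-FMT liver (72.4) was just under the highest HFD liver (73.4). Nr1h4 rose by 0.38 in HFD+AOS against HFD (SE 0.10, adjusted p = 0.0378), by 0.39 in A10-FMT against HFD (SE 0.10, adjusted p = 0.0377) and by 0.49 in A10-FMT against Con-FMT (SE 0.10, adjusted p = 0.0285). The first 2 comparisons share the HFD livers. Over the 12 high-fat livers the AOS-linked rise was 0.43 (SE 0.07, 95% interval 0.28 to 0.59, adjusted p = 0.0015), and all 18 alternatives called it, at 0.39 to 0.49.

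The separate comparisons were less secure. In HFD+AOS against HFD the call was lost without HFD liver 1 or 3 or any one HFD+AOS liver (0.30 to 0.40, adjusted p = 0.062 to 0.156). In A10-FMT against HFD it was lost without HFD liver 1 or 3 or A10-FMT liver 1 or 2 (0.30 to 0.37, adjusted p = 0.0617 to 0.173), and in A10-FMT against Con-FMT without any one Con-FMT liver or A10-FMT liver 1 or 2 (0.40 to 0.53, adjusted p = 0.0641 to 0.152). All 3 calls were also lost in fits of only the groups compared and without the third Con and AOS livers. Nr1h4 also rose between all high-fat and all regular-diet livers, by 0.33 (SE 0.06, adjusted p = 0.0040), under all 23 alternatives. HFD alone against Con gave 0.13 (-0.10 to 0.35, adjusted p = 0.598) and AOS alone against Con -0.07 (adjusted p = 0.805). The difference of the AOS effect between diets was 0.44 (0.13 to 0.76), with an adjusted p of 0.189.

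Clock genes also differed between the AOS-linked and AOS-free high-fat livers. The 10 clock repressors and outputs (Per1, Per2, Per3, Nr1d1, Nr1d2, Dbp, Tef, Hlf, Ciart and Bhlhe41), whose RNAs rise and fall daily, summed to 240 to 282 RPKM in HFD+AOS and 170 to 317 in A10-FMT. They summed to 23.7 to 47.7 in HFD, 52.2 to 109 in Con-FMT, 17.6 to 32.2 in Con and 31.5 to 73.8 in AOS. Dbp was at 49.2 to 127 RPKM in the 6 AOS-linked livers and at 0.27 to 22.6 in the 6 AOS-free ones. Arntl, the gene of the clock activator BMAL1, was at 0.69 to 2.41 RPKM in the AOS-linked livers and at 6.94 to 14.6 in the AOS-free ones. In AOS-linked against AOS-free livers 10 of 10 of the repressors and outputs rose, and Arntl fell by 2.44 (adjusted p = 2.0e-07). In Con-FMT against HFD the 10 repressors and outputs had positive values too (median 0.94, 0 called), while Nr1h4 was at -0.10. Of the 3 cholangiocyte genes tested, only Sox9 fell in the comparisons that follow. Against HFD, Sox9 fell by 1.03 in A10-FMT (adjusted p = 8.9e-04) and by 0.87 in HFD+AOS (0.0032). In the AOS-linked comparison it fell by 0.67 (adjusted p = 8.9e-04). The other 2 had positive values in each of these comparisons. In A10-FMT against HFD, Spp1 was at 0.24 (adjusted p = 0.514) and Krt19 at 0.18 (0.627). The part of these differences in the Nr1h4 values was not tested, and no time of sampling is given in the sources used here.

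Unlike Nr1h4, Nr0b2 (chr4:133553376-133556536, GRCm38, plus strand), which FXR raises, was not called in any comparison. Its levels were 48.7, 41.8 and 48.7 RPKM in Con, 70.6, 41.5 and 44.7 in AOS, and 57.8, 36.7 and 43.6 in HFD. They were 53.0, 57.4 and 32.2 in HFD+AOS, 48.2, 44.3 and 26.8 in Con-FMT, and 29.2, 28.9 and 41.7 in A10-FMT. The groups overlapped in each comparison made, and the highest A10-FMT liver (41.7) was just under the lowest Con liver (41.8). A10-FMT against HFD was -0.45 (SE 0.26, adjusted p = 0.298), and AOS-linked against AOS-free was -0.10 (-0.49 to 0.29, adjusted p = 0.752). Between diets it was -0.26 (adjusted p = 0.318).

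Nr5a2 (chr1:136842571-136960448, GRCm38, minus strand), which activates Cyp7a1 and Cyp8b1, differed little. It measured 8.15, 11.1 and 8.81 RPKM in Con, and the 3 AOS livers (11.8 to 12.3) were all above them. The AOS against Con difference was 0.35 (adjusted p = 0.189). HFD against Con was 0.30 (adjusted p = 0.242) and Con-FMT against HFD 0.26 (adjusted p = 0.741). Between diets it was 0.23 (SE 0.07), at an adjusted p of 0.0518, and 0.29 with an adjusted p of 0.0151 without Con liver 2; leaving out HFD liver 1, Con-FMT liver 3 or A10-FMT liver 2 also brought it under 0.05, at up to 0.0479.

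Across livers, the enzymes and regulators kept no relation that passed correction. Over the 16 livers without the third Con and AOS livers, 6 pairs were examined with permutation tests (2-sided, 100000 resamples). Cyp7a1 and Nr0b2, repressor and target, gave the strongest Pearson r, -0.55 (p = 0.0264, adjusted over the 6 pairs 0.158), with a Spearman rho of -0.39 (p = 0.133, adjusted 0.199). It was -0.55 without the 2 livers farthest from the median of Cyp7a1 and -0.51 for deviations from the group means. Cyp7a1 and Cyp8b1, which share the classic pathway, gave r = -0.39 (permutation p = 0.139, adjusted 0.208) and rho = -0.52 (p = 0.042, adjusted 0.199). Nr1h4 and Nr0b2 gave r = -0.42 (permutation p = 0.104, adjusted 0.208), which fell to -0.14 without the 2 farthest livers. Akr1d1 and Akr1c6 gave 0.45 (permutation p = 0.0775, adjusted 0.208), and 0.16 without them. Cyp8b1 with Nr0b2 gave 0.31 and Cyp7a1 with Nr5a2 gave -0.13, with permutation p of 0.24 and 0.631.

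**Figure D4:**
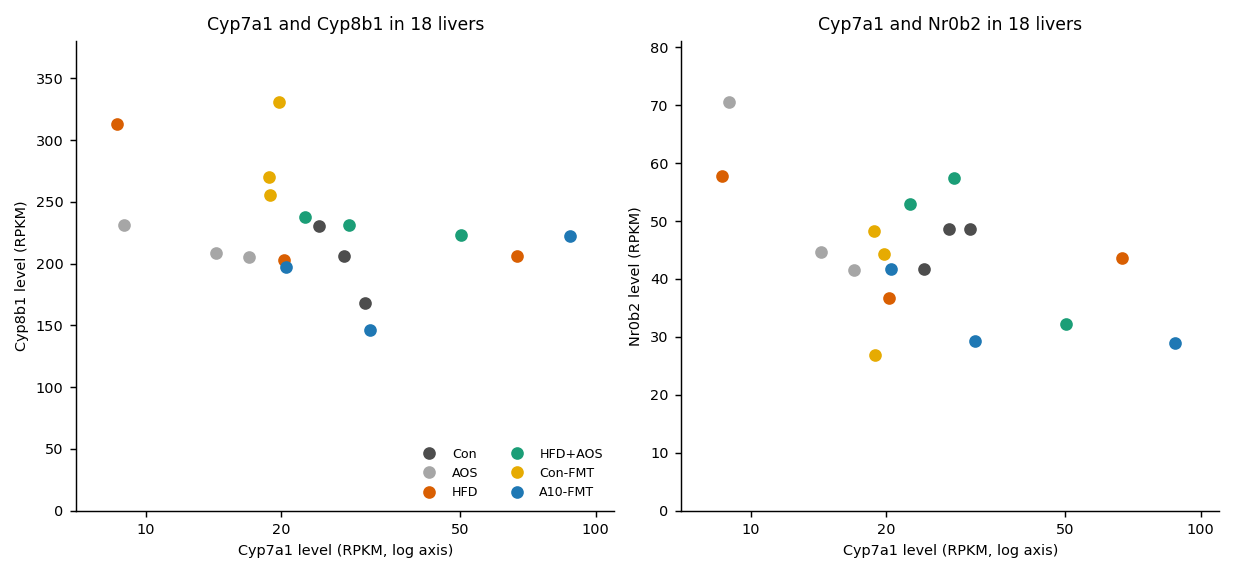
Cyp8b1 (left) and Nr0b2 (right) in RPKM against Cyp7a1 in RPKM (log axis) in 18 livers, coloured by group. The highest Cyp8b1 values (331 and 313 RPKM) were in livers with Cyp7a1 of 19.7 and 8.63 RPKM, and the highest Nr0b2 (70.6 RPKM) was in a liver with Cyp7a1 of 8.92.

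The other genes of bile acid synthesis gave 5 calls between diets among 12 tested of 13 listed, 4 higher and 1 lower, beside 12.9% of all genes. Slc27a2, an acyl-CoA synthetase that activates bile acid precursors, rose by 0.66 (adjusted p = 3.0e-05), from 237 to 333 RPKM in regular-diet livers to 320 to 530 in high-fat livers. Amacr, the racemase of the side chain, rose by 0.26 (adjusted p = 0.0021), and Hsd17b4 and Akr1c14 by 0.22 and 0.26. Cyp2c70, which makes the muricholic acids of mice, fell by 0.58 (adjusted p = 0.0054), to a median of 379 RPKM from 577. Without the third Con and AOS livers, Hsd17b4 and Cyp2c70 had an adjusted p of 0.0577 and 0.0503, and Akr1c14 one of 0.0921. Akr1c14 also lost its call without Con liver 1 or 3 or AOS liver 1 (adjusted p = 0.0542 to 0.0718). The list's median was 0.10, beside 0.01 for all genes. In HFD against Con only Slc27a2 was called, at 0.61, beside 0.381% of all genes. It was not called without Con liver 1 or 3 or HFD liver 1 or 3 (adjusted p = 0.0709 to 0.169), nor without the third Con and AOS livers (0.22). In AOS-linked against AOS-free livers Amacr (0.19) and Akr1c14 (0.27) were called higher, beside 15.4% of all genes. They passed the threshold in 12 and 6 of 18 alternatives. None of the 12 was called in A10-FMT against HFD (6.6% of all genes), where Acox2 at -0.35 had the smallest p (adjusted p = 0.067). The same held in A10-FMT against Con-FMT (1.68% of all genes), where Hsd3b7 had a value of -0.38 (adjusted p = 0.084).

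Of 13 tested among 16 other regulators, the fatty acid receptor gene Ppara changed most often. It rose between diets by 0.59 (adjusted p = 5.1e-04), in A10-FMT against HFD by 0.59, in HFD+AOS against HFD by 0.87 (adjusted p = 0.0020) and in AOS-linked against AOS-free livers by 0.51. The comparison between diets pools livers with AOS or transplants with those without. In HFD against Con alone, Ppara was at 0.35 (adjusted p = 0.257). Nr1i3, the gene of the xenobiotic receptor CAR, rose in A10-FMT against HFD by 1.00 (adjusted p = 0.0319) and in the AOS-linked comparison by 0.73. Rxra, the partner of FXR, rose between diets by 0.20 (adjusted p = 0.0158). Hnf4a, whose motif stands in the Cyp8b1 window, fell by 0.26 in HFD+AOS against HFD (adjusted p = 0.0473), and was called in 3 of 12 alternatives. Ppara in HFD+AOS against HFD and between diets, and Ppara and Nr1i3 in the AOS-linked comparison, were called under every alternative run. In A10-FMT against HFD both lost the call without HFD liver 2 or 3 or A10-FMT liver 1 or 2 (adjusted p up to 0.104 and 0.15), and Rxra lost its call between diets without AOS liver 2 or 3 (adjusted p = 0.0544) and without the third Con and AOS livers (0.0924). The list had 2 calls between diets (12.9% of all genes), 2 in A10-FMT against HFD (6.6%), 2 in HFD+AOS against HFD (8.75%) and 2 in the AOS-linked comparison (15.4%), and none in the others.

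Of 14 tested among 16 bile acid transport genes and FXR targets, 3 rose between diets, beside 12.9% of all genes called, and 2 fell in the AOS-linked comparison, beside 15.4%. Abcb4, the canalicular phospholipid exporter, rose between diets by 0.59 (adjusted p = 5.1e-04), Abcc2, which exports conjugates, by 0.45, and Slco1b2, a basolateral uptake carrier, by 0.37. All 3 were called under the 23 alternatives. Abcb4 and Abcc2 were also called in HFD against Con, at 0.78 and 0.54, beside 0.381% of all genes. Each was called in 3 of 12 alternatives and lost the call without Con liver 1 or 3 or any one HFD liver. Both also lost it without the third Con and AOS livers (limma adjusted p = 0.22 and 0.261). Abcb11, the bile salt export pump and a target that FXR raises, fell in AOS-linked against AOS-free livers by 0.49 (SE 0.14, adjusted p = 0.0248), from 76.8 to 102 RPKM to 35.3 to 73.7, with no overlap. It was -0.32 without A10-FMT liver 2, which had the 35.3, and its call was lost without HFD liver 3 or HFD+AOS liver 2 (adjusted p = 0.063 and 0.0531). Atp8b1, a phospholipid flippase of the same membrane, fell by 0.25 (adjusted p = 0.0228), a call lost without HFD liver 3, HFD+AOS liver 1, Con-FMT liver 2 or A10-FMT liver 2 (adjusted p up to 0.0636). In the AOS-linked comparison Nr1h4 was at 0.43, and the FXR targets Nr0b2 and Abcb11 were at -0.10 and -0.49. Of the 14 tested genes of this list, 8 had positive and 6 negative values there, with a median of 0.03 (-0.60 to 0.64). The activity of FXR was not measured. Slc51b, an exporter that FXR raises, was at 0.19 to 4.45 RPKM in the high-fat livers, with no call.

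As a description of pattern, the genes most like each of 4 members over the 16 livers were found by Pearson correlation of log2(RPKM + 1). Cyp7b1 ran closest to C6, a complement component (r = 0.90), then to Pfn2 (0.79) and Enho (0.79). Cyp8b1 ran closest to Akap1 (0.92), Ankrd46 (0.87) and 2610507B11Rik (0.82), and Cyp7a1 to Stim2 (0.83), Nmrk1 (0.82) and Ttc39b (0.80). For Nr0b2 the values were 0.78 for Slc2a1, 0.77 for Sp2 and 0.74 for H2-Bl, lower than for the leading genes of the other 3 members.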

How the data were processed

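RNA-seq of 18 mouse livers in 6 groups of 3 was analysed. The deposited table holds RPKM values that the authors computed from mapped reads, with 2 decimals and no read counts. The study's methods name SOAPaligner, whereas the submitters' processing notes name Bowtie 0.12.2 and the mm10 build, so the aligner is uncertain. Columns were matched to groups by the abbreviations in their names. The 10 genes and all lists were chosen with earlier results of these data known.

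Values were analysed as log2(RPKM + 1), and fold changes on this scale understate changes of low genes. Genes at 1 RPKM or more in at least 3 libraries were fitted with limma 3.58.1 (R 4.3.3; lmFit, eBayes with trend) on 6 group means, with Benjamini-Hochberg adjustment over 10507 genes. The fit was tested on simulated data. Correlations used permutation tests in scipy 1.17.1. Promoter windows came from RefSeq (GRCm38.p6) and positions and transcripts from GENCODE on GRCm38. No count test was possible without counts. Other genes were named by a rule: from each list and comparison, up to 3 called genes by smallest p, and otherwise those with the smallest unadjusted p. The rule was not kept throughout: between diets, Hsd17b4 and Akr1c14 were named beyond the first 3. Items withheld from this work are not reported here.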

Additional observations from a re-analysis of the deposited data

How the results depend on the processing

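Of the 10 genes, the number called in HFD against Con was 1, and 0 with library medians set equal, without the filter on low values, in a fit of only the groups compared, with the replicate number as a block (a replicate block), without the third Con and AOS livers, and when a fold change of 2 was also required. In A10-FMT against HFD and in HFD+AOS against HFD it was 1, and 0 without the filter, in only the groups compared, without those livers and with the fold change of 2. In A10-FMT against Con-FMT it was 1, and 0 in only the groups compared, without those livers and with the fold change of 2. In AOS-linked against AOS-free livers it was 2, and 1 without the filter, in only the groups compared, with the replicate block and without those livers, and 0 with the fold change of 2. Between diets it was 3, and 2 without the filter and without those livers (Cyp7b1 lost), and 0 with the fold change of 2. It was 3 with library medians set equal, but with Nr5a2 in place of Cyp7b1. Leaving out 1 liver gave 0 to 1 in each comparison of 2 groups that had a call, 1 to 2 in the AOS-linked one and 2 to 3 between diets. Of 509 alternative values of 33 fold changes, 1 changed direction: Cyp7a1 in HFD against Con was 0.42 without HFD liver 1, within a range of -0.99 to 0.42 when 1 liver was left out. The labels do not say that the numbers pair the livers. In 0 of 6 comparisons were all correlations of same-numbered livers over 0.1 (-0.18 to 0.23). These used deviations from the means of only 3 livers, so they cannot decide whether livers were paired. Equal library medians changed the split of all calls into higher and lower from 31 and 9 to 25 and 22 in HFD against Con, from 275 and 418 to 609 and 475 in A10-FMT against HFD, from 48 and 129 to 110 and 140 in A10-FMT against Con-FMT, from 10 and 4 to 4 and 4 in AOS against Con, from 15 and 38 to 22 and 27 in the difference of the AOS effect, and from 648 and 965 to 1077 and 956 in the AOS-linked comparison. Over all genes, the calls in HFD against Con went from 40 to 0 without the third Con and AOS livers, to 2 in only the groups compared and to 5 with the block. Without those livers they went from 693 to 395 in A10-FMT against HFD, from 177 to 82 in A10-FMT against Con-FMT, from 919 to 496 in HFD+AOS against HFD and from 1355 to 470 between diets. Where calls were lost in fits of fewer livers, fewer samples set the spread; the cause of the other changes was not tested. Reads per library are not given, so no counting error could be set on low values.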
